A study of Mus musculus with 2 samples.

Results

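The 6 genes described here, Stat2, Stat3, Stat4, Stat5a, Stat5b and Stat6, encode members of the STAT family of transcription factors. They were chosen by name, with earlier results of these data known. Every array probe whose RefSeq accession belongs to 1 of them was taken. This gave 10 probes and 19 spots on each array, for 6 of the 20652 genes named on the arrays. The cells were bone marrow-derived macrophages (BMDMs) of 8-week-old male mice that carried the floxed Crif1 allele (Crif1 f/f), for which the methods of the array experiment name no Cre. They were either left untreated or given IL-4 for 18 h, so that both groups share the genotype and differ in the cytokine. The dose of IL-4 on the arrays and the number of mice behind each RNA are not given in the sources used here. Cy3-labelled RNA of each group was read on 1 single-colour Agilent mouse array. With 1 array a group, no difference has a replicate behind it and no p-value was computed, and precision is limited by the number of arrays.

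STAT proteins wait in the cytoplasm until a cytokine binds its receptor. Janus kinases bound to the receptor chains then phosphorylate a tyrosine of the STAT, and STATs pair through their SH2 domains, enter the nucleus and bind DNA. STAT6 is the member that carries the IL-4 and IL-13 signal and drives alternative activation of macrophages, STAT3 serves IL-6 and IL-10, STAT5A and STAT5B serve GM-CSF, IL-3 and many other cytokines, STAT2 works with IRF9 in the type I interferon response, and STAT4 serves IL-12 in T and NK cells. The arrays measured mRNA and not phosphorylated STAT protein, so what follows is the supply of each STAT transcript and the RNA of the genes around it. In a bulk sample, fewer cells of a type and less RNA per cell cannot be told apart.

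Many STAT dimers prefer a palindrome of TTC and GAA. It was searched with 3 bases between TTC and GAA (TTCNNNGAA), common to most STATs, and with any 4 bases between them, the spacing that STAT6 favours. Windows of 250 bases before each RefSeq transcription start (GRCm38.p6) were searched on both strands. All 6 STAT genes had a window, and Stat2 was the gene among them with a palindrome, with the 4-base spacing. Its window is shown because it also holds GAAA, any 2 bases and GAAA again, a core of the interferon-stimulated response element that STAT2 complexes bind. Capitals mark the palindrome, this element (here read on the opposite strand) and GGGCGG, the GC box, on either strand. The window lies at chr10:128270248-128270497 on the + strand.
Stat2: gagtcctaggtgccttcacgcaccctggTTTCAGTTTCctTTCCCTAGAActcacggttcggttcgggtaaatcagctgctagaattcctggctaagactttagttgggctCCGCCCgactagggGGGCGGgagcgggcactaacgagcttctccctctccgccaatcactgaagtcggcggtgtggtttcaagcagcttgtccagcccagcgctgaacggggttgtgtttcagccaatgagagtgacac
The match to the interferon element began 222 bases and the palindrome 210 bases before the start, and they did not overlap. The same element was found in Stat4, 97 bases before its second annotated start. Of 32851 windows of this length, 7.02% held the palindrome with 3 bases between, 5.85% that with 4, 2.98% the interferon element and 32.7% GGGCGG. Such a match is a description of the letters and not a binding site.

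For comparison, the windows of 14 of 20 genes listed as STAT6 targets were in the table, and 4 of them, Ccl17, Fcer2a, Pdcd1lg2 and Retnla, held the palindrome with the 4-base spacing. Over all 27025 genes with a window the share was 6.76%. It was also in 2 of 7 STAT4 targets and 2 of 9 STAT2 targets with a window, and in none of 6 STAT5 and 8 STAT3 targets. The 3-base spacing was in 2 of the 14. The matches are shown with 10 bases on each side and with the palindrome in capitals, because these genes stand in the STAT6 target list that the STAT transcripts are set against below.
Ccl17 (chr8:94810289-94810318, + strand): cgagtgaccaTTCTCTGGAAagccacaaac
Fcer2a (chr8:3691010-3691039, - strand): agagggtgaaTTCCCAAGAAgggccaggag
Pdcd1lg2 (chr19:29410827-29410856, + strand): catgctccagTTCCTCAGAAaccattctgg
Retnla (chr16:48842454-48842483, + strand): agaatcataaTTCACAAGAAattgctaaac
They began 154, 168, 82 and 145 bases before the respective start. Ccl17, a chemokine, had an intensity of 112 untreated and 600 after IL-4. Retnla and Pdcd1lg2 were not well above background untreated and read 18633 and 2813 after IL-4. Fcer2a, the low-affinity IgE receptor, was well above background on neither array. Over the whole list, with or without a match, 16 of the 17 targets measured on either array were at least 2-fold higher.

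Intensities below are background-subtracted and in array units. Differences are on the log2 scale, IL-4 minus untreated, with each array set to its own 75th percentile (9.84 untreated, 9.94 after IL-4). The flag "well above background" was set by the scanner software. The error beside a difference, called the spot SD, comes from probes with at least 5 unflagged spots and a mean signal within 1 log2 unit. It is the median of the SDs of their log2 differences over spots. It covers the array surface and not the spread between cultures. Probes of similar signal are those within 0.5 log2 units of the member's mean. On the untreated array 59.8% of gene spots were well above background and on the IL-4 array 57.4%, both arrays lay on 1 slide, and no gene spot was saturated. The median difference was -0.01 over the 12741 genes that were measured on both arrays, meaning well above background there. This median moved to 0.20 with median scaling and to 0.32 with scaling on the spike-in controls, so each STAT difference is also given relative to it. A scaling that shifts all probes of an array equally cannot change this relative value. Its range over settings thus comes almost wholly from quantile normalization, cyclic loess and normexp background correction. All 7 macrophage markers matched on the arrays were well above background on both, with a median difference of -0.71. Csf1r, the M-CSF receptor, and Adgre1, which encodes F4/80, were the 2 above 0, at 0.09 and 0.17, Itgam and Lyz2 lay at -0.71 and -0.70, and Mertk, Fcgr1 and Cd14 were at least 2-fold lower. The summed scaled level of the 7, which the brightest of them dominate, went from 324 to 279. All 6 stromal cell markers were also well above background on both arrays, with a summed scaled level of 354 untreated and 324 after IL-4. So were all 7 matched neutrophil markers (summed 43.0 and 38.3) and 3 of 6 dendritic cell markers (all 6 summed, 31.9 and 32.4). The same held for 5 of 8 eosinophil, mast cell and basophil markers (1.39 and 1.24) and 1 of 5 B cell markers (0.62 and 0.44). The part of any such cells in the STAT values was not tested.

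Of the 6 STAT genes, 5 were well above background on both arrays and Stat4 was so on the untreated array alone. With 75th percentile scaling none was at least 2-fold or 1.5-fold higher after IL-4, although Stat5a passed 1.5-fold with median, no and spike-in scaling and Stat2 with spike-in scaling. Of the 14070 genes measured on either array 3.06% were 2-fold or more and 6.36% were 1.5-fold or more higher. Stat4 was the 1 member at least 2-fold lower, against 3.35% of genes at that fold and 8.95% at 1.5-fold, and with normexp background correction (-0.91) it was no longer so. The median difference of the 5 genes on both arrays was -0.04, from -0.29 for Stat6 to 0.57 for Stat5a, and this median was above 0 with median scaling (0.17), no scaling (0.055) and spike-in scaling (0.29). These values and the order that follows take the brightest probe of each gene. With the median over probes Stat3 was -0.33, below Stat6 at -0.27. In order, the differences ran Stat5a, Stat2, Stat3, Stat5b and Stat6. Of these neighbours Stat3 and Stat5b, 0.04 apart, lay within their combined spot SD of 0.074, and the others were 0.21 to 0.32 apart.

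**Figure D1:**
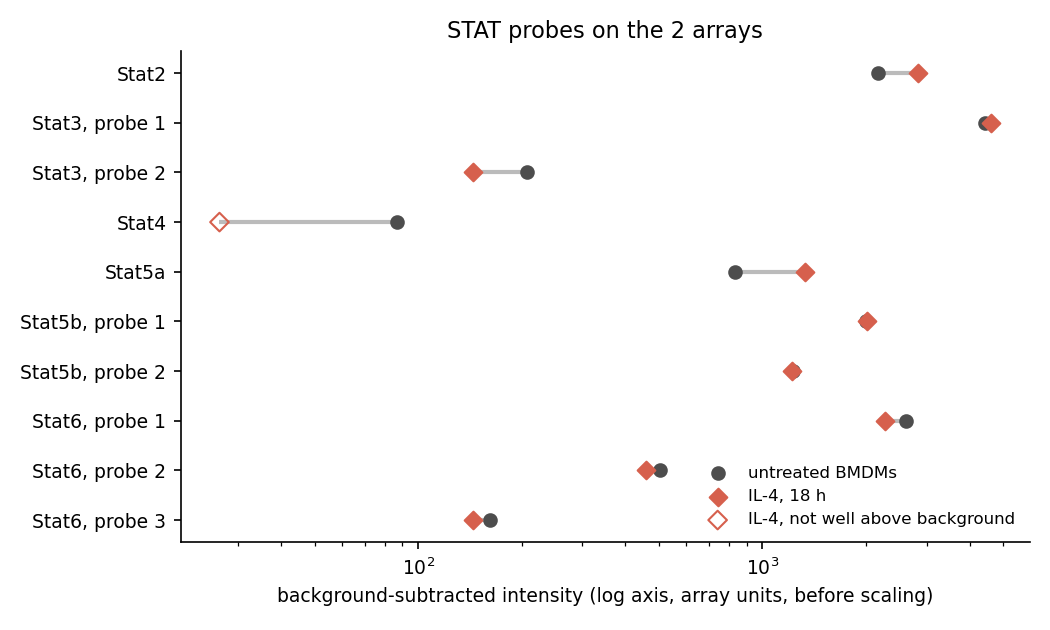
Background-subtracted intensity (x axis, log scale, array units before scaling) of each of the 10 STAT probes on the untreated array (circles) and the IL-4 array (diamonds), with a line joining the values of a probe. Stat5a went from 834 to 1328 and Stat2 from 2174 to 2823, Stat4 fell from 87.0 to 26.5 and was not well above background after IL-4 (open diamond), and levels of different probes cannot be set against each other.

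STAT6 is the factor that the IL-4 receptor activates. Its 3 probes read 2607, 503 and 162 on the untreated array and 2277, 458 and 144 after IL-4, so each was dimmer after IL-4 even before scaling. The differences were -0.29 ± 0.052, -0.23 ± 0.062 and -0.27 ± 0.11 (spot SD), and their mean was -0.27 ± 0.031 (SD over 3 probes). The probes differed by 0.062 at most, whereas the median gene of 3290 with several probes on both arrays had a range of 0.14. A difference of this size was common: 16.0% of genes on both arrays were at least as low, and the 3 probes lay inside the 5th to 95th percentile of probes of similar signal, which for the brightest ran from -0.42 to 0.49. Relative to the median of all genes the difference of Stat6 was -0.28 and ran from -0.32 to -0.20 over 10 settings, while in absolute terms the brightest probe read 0.043 with scaling on the spike-in controls. With the settings that can move this relative value, Stat6 lay at -0.31 (quantile normalization), -0.32 (cyclic loess) and -0.20 (normexp).

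STAT5A and STAT5B are near-identical proteins whose genes lie beside each other, with Stat3, on mouse chromosome 11. They parted in these arrays. Stat5a read 834 untreated and 1328 after IL-4, a difference of 0.57 ± 0.057 (spot SD) or 1.49-fold, just short of the 1.5-fold line at 0.58 with the 75th percentile and past it with median scaling (0.79), no scaling (0.67) and spike-in scaling (0.91). Stat5b read 2001 and 2020 at its brighter probe, a difference of -0.09 ± 0.055, and 1224 and 1216 at its second probe, a difference of -0.11 ± 0.058. The 2 Stat5b probes differed by 0.023, and 90.8% of genes with several probes had at least that range.

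The gap between Stat5a and Stat5b was 0.66 against a combined spot SD of 0.079. Any scaling that shifts all probes of an array equally leaves this gap as it is. Stat5a was the 1 STAT probe on both arrays outside the 5th to 95th percentile of probes of similar signal, which ran from -0.48 to 0.50 over 2540 probes, of which 4.06% were at least as high. Among genes on both arrays 5.23% were at least as high. Relative to the median of all genes Stat5a lay at 0.59, with a range of 0.52 to 0.59 over 10 settings. Stat5b lay at -0.07, with a range of -0.10 to -0.05, although its absolute value was above 0 with median scaling, no scaling and spike-in scaling. Stat5a rests on 1 spot per array. Probe sequences were not used here, so binding of the paralogue's RNA by either probe was not tested.

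STAT3 carries IL-6 and IL-10 signals, the latter an anti-inflammatory one in macrophages. Its brighter probe was printed in 10 spots, which read 4312 to 4563 untreated (median 4458) and 4520 to 4889 after IL-4 (median 4598). All 10 spots were brighter after IL-4 and 8 of the IL-4 spots exceeded the brightest untreated spot, yet the mean gain before scaling was 0.055 on the log2 scale. The scaling subtracts more than this from the IL-4 array. After it the difference was -0.04 ± 0.038 (SD between 10 spots), from -0.07 to 0.05, with 9 of 10 spots below 0. The sign of Stat3 thus depends on the scaling: it was above 0 with median scaling, no scaling and spike-in scaling, and relative to the median of all genes it ran from -0.09 to 0.01 over 10 settings.

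**Figure D2:**
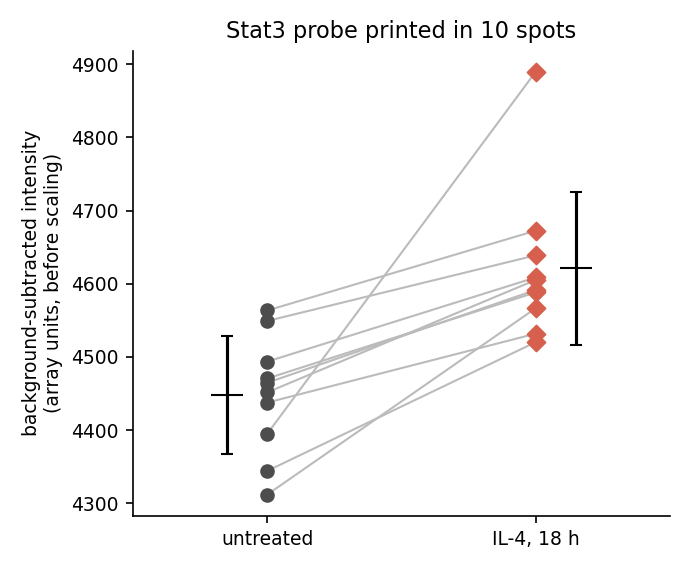
Background-subtracted intensity (y axis, array units before scaling; the axis does not start at 0) of the 10 spots of the brighter Stat3 probe on the untreated array (circles) and the IL-4 array (diamonds), with lines joining the same spot and bars for the mean ± SD over spots. The 10 spots read 4312 to 4563 untreated and 4520 to 4889 after IL-4, so that 8 IL-4 spots lie above the brightest untreated spot.

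A second Stat3 probe, annotated to a different RefSeq transcript of the gene, was dimmer and went further. It read 207 untreated and 144 after IL-4, a difference of -0.62 ± 0.10 (spot SD) or 1.53-fold lower. Of probes of similar signal, with a median of -0.08 and a 5th to 95th percentile of -0.69 to 0.56, 6.67% were at least as low. The 2 Stat3 probes were 0.57 apart, a range that 8.27% of genes with several probes reached. Whether the transcripts or the probes differ was not tested, and with the median over both probes the value for Stat3 was -0.33.

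STAT2 joins IRF9 in the complex that turns on interferon-stimulated genes. Its 1 probe read 2174 untreated and 2823 after IL-4, a difference of 0.28 ± 0.053 (spot SD) or 1.21-fold. This exceeds the spot SD, yet 12.6% of probes of similar signal and 13.8% of genes were at least as high. The value kept its sign in each of 10 alternatives, from 0.20 to 0.61, and relative to the median of all genes it ran from 0.24 to 0.29.

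STAT4 acts in T and NK cells downstream of IL-12 and was the dimmest reading. Its 1 probe read 87.0 untreated, with an error of 12.2% by the scanner software, and 26.5 after IL-4, with an error of 24.0%, where it was still flagged as positive and significant but not as well above background. Against the dimmest signal still flagged well above background after IL-4, Stat4 was 3.34-fold lower. This is a log2 difference of -1.74, and the difference was -1.82 as measured. Some brighter signals lacked that flag, such as Fcer2a at 32.7 after IL-4, so 3.34-fold is not a strict lower limit. The spot SD at the signal of Stat4 was 0.27, and normexp background correction brought the Stat4 difference to -0.91. The median pixel of the spot fell from 163 to 99 over a local background of 23 and 33, and the 95th percentile of 153 negative control probes was 71.7 and 72.7.

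Other probes of this signal were also lost. Of 2961 probes as bright as Stat4 on the untreated array, 14.6% were not well above background after IL-4 and 11.5% were at least as low as Stat4. Of 2544 probes as bright on the IL-4 array, 6.41% were not well above background on the untreated array. Among the spike-in controls a probe of log2 intensity 6.74 untreated had a scaled difference of -0.69 and a probe of 5.22 one of -2.34. Of 11 T and NK cell markers, 5 were well above background untreated and 3 after IL-4, and their summed scaled level went from 1.24 to 1.01. Cd3e was among the 3, at 343 untreated and 296 after IL-4, while Cd3d and Cd3g were well above background on neither array. The part of such cells or of the dim signal in the Stat4 value was not tested.

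**Figure D3:**
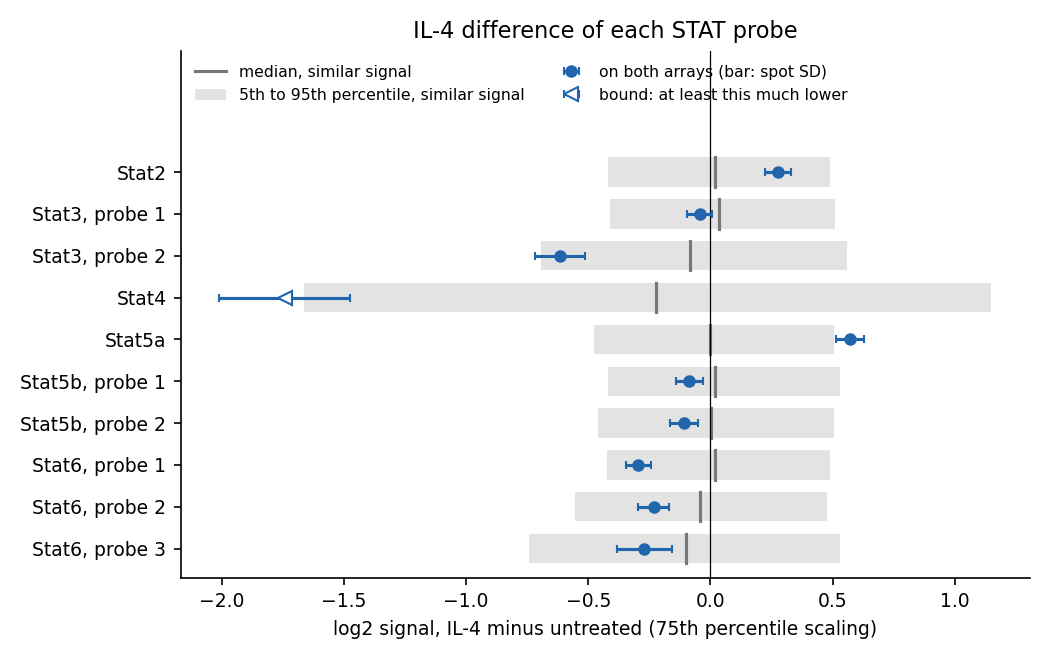
Log2 difference, IL-4 minus untreated (x axis), of each STAT probe after 75th percentile scaling, with the spot SD as error bar, the bound for Stat4 as an open arrowhead, and the median (line) and 5th to 95th percentile (grey) of all probes of similar signal. Stat5a, at 0.57, lies above the grey range that ends at 0.50. Stat4, a bound at -1.74 with a spot SD of 0.27, lies just below a range that starts at -1.66. That range holds measured differences of probes well above background on at least 1 array, and for the other members on both.

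**Figure D4:**
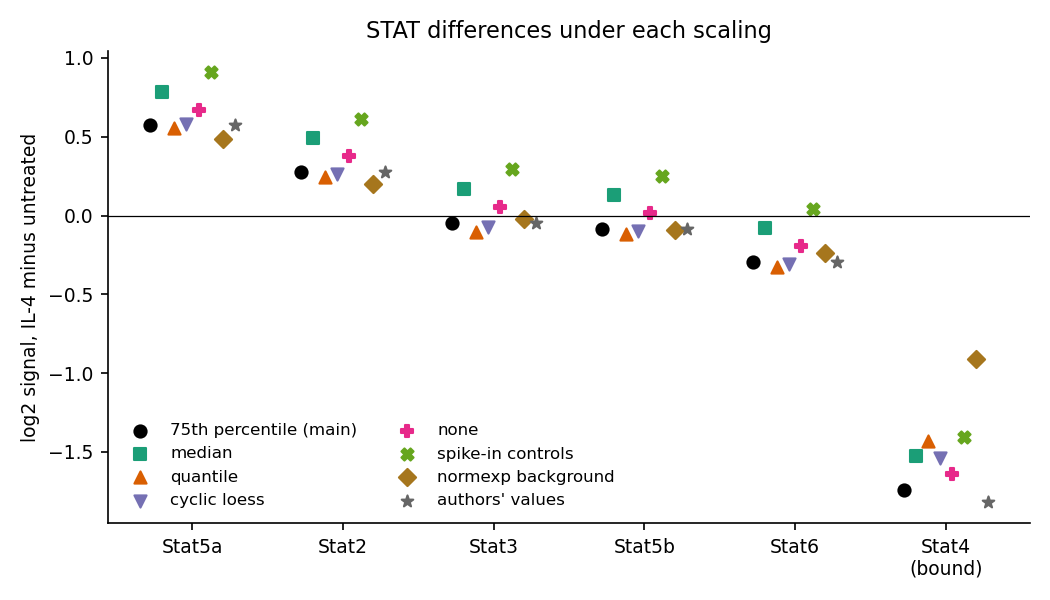
Log2 difference, IL-4 minus untreated (y axis), of each STAT gene under 8 ways of scaling the arrays, where the values for Stat4 are bounds except the star, the authors' processed value, which is as measured. Stat5a and Stat2 lie above 0 in all 8. Stat4 lies below 0 in all 8, where its bounds cannot lie elsewhere. Stat3 and Stat5b lie above 0 with median scaling, no scaling and spike-in scaling, and Stat6 does with spike-in scaling.

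The genes around the STATs were taken as 9 lists, which were chosen with earlier results of these data known. Of 30 cytokine receptor chains, 24 were well above background on both arrays and 1 on the IL-4 array alone. Among these 25, 3 were at least 2-fold higher (2 of the 24) and none was lower by that much, and the median over the 24 was 0.05, beside -0.01 over all genes. Il6st, which encodes gp130, the shared signalling chain of the IL-6 family that feeds STAT3, went from 2413 to 6933, a difference of 1.42 or 2.68-fold. Csf2rb, the β chain of the GM-CSF and IL-3 receptors that feed STAT5, went from 17176 to 39150, a difference of 1.09 or 2.13-fold. Il13ra2, a receptor for IL-13 often described as a decoy, was not well above background untreated and read 438 after IL-4. After scaling that was 14.0-fold above the dimmest untreated signal flagged well above background.

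The chains that bind IL-4 itself moved less. For Il4ra, the α chain, the brightest probe had a difference of 0.10 and the second probe one of 0.27. Il2rg, the common γ chain of the type I IL-4 receptor, had one of 0.23. Il13ra1, the partner chain of the type II receptor, read 161 and 113, a difference of -0.61.

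All 4 Janus kinases were well above background on both arrays. Jak2, the kinase of the GM-CSF, IL-3 and interferon-γ receptors, read 1518 untreated and 3694 after IL-4, a difference of 1.18 or 2.27-fold. The kinases usually assigned to the IL-4 receptor lay closer to 0: Jak1 had a difference of 0.07, Jak3 one of -0.32 (-0.52 at its second probe) and Tyk2 one of -0.25. Of these 4, Jak2 was thus the 1 at least 2-fold higher.

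Of 17 inhibitors of the pathway (SOCS proteins, PIAS proteins and phosphatases), 16 were well above background on both arrays, and their median was 0.04. By the brightest probe of each gene 3 were at least 2-fold higher, and all 3 belong to the SOCS family. Several members of that family are induced by STATs and bind receptors or Janus kinases in return. Cish went from 212 to 5761, a difference of 4.66. Socs1 went from 242 to 5376, a difference of 4.37, and Socs2 from 506 to 1129, a difference of 1.06. The other SOCS genes lay lower, with Socs5 at 0.60, Socs3 at 0.46, Socs7 at -0.002, Socs4 at -0.06 and Socs6 at -0.11. Ptpn2, a phosphatase with 3 probes, had a difference of 0.49 at its brightest. Its probes on both arrays ran from 0.25 to 1.12, so the upper one passed 2-fold. None of the 16 was at least 2-fold lower, and Pias3 was well above background on neither array. The 10 partners and coactivators were all well above background on both arrays, lay between -0.32 and 0.39, and had a median of 0.05.

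**Figure D5:**
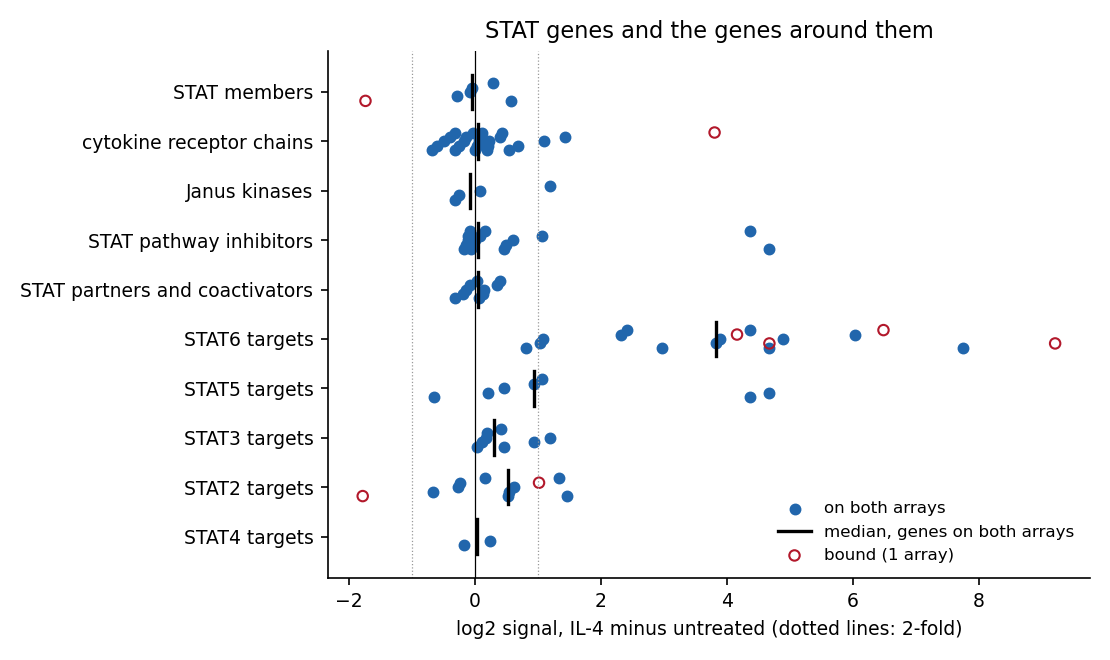
Log2 difference, IL-4 minus untreated (x axis), of the STAT genes and of the genes in each list around them after 75th percentile scaling. Filled points are genes well above background on both arrays, open points are bounds for genes on 1 array, black bars are medians over the filled points, and dotted lines mark 2-fold: the STAT6 targets have a median of 3.83, while the receptor chains, inhibitors, partners and STAT genes have medians of 0.05, 0.04, 0.05 and -0.04.

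The target lists differed in level. They overlap, since Cish and Socs1 stand in the lists for STAT5 and STAT6 and among the inhibitors, and Socs3 and Pim1 in those for STAT3 and STAT5. They name genes known to answer each factor and do not show which factor acted here. The lists were chosen with earlier results of these data known. Their counts and medians are thus descriptions and cannot test a response. Of 20 STAT6 targets 17 were measured on either array and 16 of these were at least 2-fold higher. Retnla, Pdcd1lg2, Cdh1 and Irf4 are among the 16 through the IL-4 array alone, where they are high, so the count for genes on both arrays is given too: 12 of 13, with a median of 3.83, beside 295 of 12741 over all genes. Arg1, the arginase of alternatively activated macrophages, went from 84.9 to 19688, a 216-fold difference. Retnla, which encodes the secreted protein RELMα, was after scaling 595-fold above the dimmest untreated signal flagged well above background. Egr2, a transcription factor, was 7.86-fold and Mrc1, the mannose receptor, 5.33-fold higher, whereas Ccl22 and Alox15, like Fcer2a, were well above background on neither array.

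Of 8 STAT5 targets 7 were on both arrays, and the 3 at least 2-fold higher were Cish, Socs1 and Socs2, with a median of 0.94 over the 7. All 8 STAT3 targets were on both arrays, with differences of 0.02 to 1.20 and a median of 0.31, and the upper end was Nfil3, a transcription factor and the 1 at least 2-fold higher. Of 13 genes listed for STAT2, all interferon-stimulated, 11 were matched on the arrays and their 9 on both had a median of 0.52. Usp18, which dampens interferon receptor signalling, had a difference of 1.45 and Irf7, a factor that amplifies interferon production, one of 1.34. As bounds, Ifit1 was 2.02-fold higher and Ifi44 3.45-fold lower, but each was well above background on 1 array alone. The lower call in this list thus rests on a bound. Of the 9 genes on both arrays, Usp18 and Irf7 were the 2 at least 2-fold higher. None of the 9 was at least 2-fold lower, and the lowest was Ifit2 at -0.67. Of 7 STAT4 targets 2 were on both arrays, none was at least 2-fold changed, and Ifng and Tbx21, the marks of type 1 lymphocytes, were well above background on neither array.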

How the data were processed

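RNA of untreated and IL-4-treated BMDMs (18 h) was measured on 1 array each, grouped by the sample labels. The authors deposited Agilent scanner files (Feature Extraction 10.10.1.1): spot intensity, background-subtracted and detrended but not scaled between arrays, and a flag for spots well above background. A second deposited file holds the authors' own log2 values, whose centring is unknown. Its 2 columns have medians of 0.16 and 0.016, and its differences equal those of the scanner output minus 0.099 for 39422 of 39424 probes (within 0.01).

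Control spots and outlier-flagged spots were left out, log2 values of a probe were averaged, and each array's 75th percentile was subtracted. A gene was read from its brightest probe. Of 39429 probes, 27223 were named to 20652 symbols through RefSeq accessions. The array design was annotated on mm9, so the GRCm38.p6 table gave names only, and promoter windows are RefSeq's on GRCm38.p6. Where 1 array was well above background, the difference is a bound, taken against the dimmest signal with that flag on the other array. Some brighter signals lacked the flag, so a bound is not a strict lower limit of the fold.

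The members and lists were chosen with earlier results of these data known. Named genes are the members, the listed genes at least 2-fold changed, and a fixed set around the IL-4 receptor. Other named genes (markers, genes on neither array, the remaining SOCS genes, Ptpn2 and the range of the partners) were chosen after their values were seen. Folds were counted without a test. Counting was tested on simulated data. Alternatives were other scalings, normexp (offset 50), dim-probe filters, probe rules, flagged spots and the authors' values. Python 3.11.15, numpy 2.4.6, pandas 2.3.3, matplotlib 3.10.9, R 4.3.3 and limma 3.58.1 were used.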

Additional observations from a re-analysis of the deposited data

How the results depend on the processing

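No paired analysis was possible because there is 1 array for each treatment. Stat4, the STAT gene at least 1.5-fold changed in the values reported, ran from -1.82 to -0.91 over 9 alternatives. A bound for a gene lost after IL-4 can only lie below 0, so its sign is no test. Single genes of the lists were not recomputed. The values that moved by more than the spot error or 1.5 times are given here. With median scaling Stat2 had a log2 difference of 0.49, Stat3 0.17, Stat5a 0.79, Stat5b 0.13 and Stat6 -0.081, the median of the STAT genes was 0.17, of the pathway genes 0.37 (0.16 in the values reported) and of all genes 0.20. With no scaling they were 0.38, 0.055, 0.67, 0.014 and -0.20, with medians of 0.055, 0.26 and 0.086. With spike-in scaling they were 0.61, 0.29, 0.91, 0.25 and 0.043, with medians of 0.29, 0.49 and 0.32, and Stat4 was -1.40. When the percentile was taken over probes measured on both arrays Stat2 was 0.22, Stat3 -0.10, Stat5b -0.14 and Stat6 -0.35, with medians of -0.0995, 0.10 and -0.069. With normexp Stat2 was 0.20, Stat4 -0.91, Stat5a 0.48 and Stat6 -0.24. With quantile normalization Stat3 was -0.11, Stat4 -1.43 and the median of the STAT genes -0.11. With the median over probes Stat3 was -0.33.

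Genes at least 1.5-fold higher numbered 895 and became 1540 with median scaling, 2357 with spike-in scaling, 576 with normexp and 1567 with no filter on dim probes. Those at least 1.5-fold lower numbered 1259 and became 760, 574 and, with no filter, 3194, or 672 for genes on both arrays only. Genes at least 2-fold higher numbered 431 and became 783 with spike-in scaling, 248 with normexp and 881 with no filter. Those at least 2-fold lower numbered 472 and became 299 with median scaling, 309 with quantile normalization, 234 with spike-in scaling, 151 with normexp, 870 with the authors' values, 2076 with no filter and 184 on both arrays only. The share of higher among the 2-fold calls was 47.7% and became 67.7% with median scaling, 64.9% with quantile normalization, 59.7% with cyclic loess, 57.8% with no scaling, 77.0% with spike-in scaling, 62.2% with normexp, 29.8% with no filter and 61.6% on both arrays only. At 1.5-fold it was 41.6%, and 67.0%, 57.4%, 52.8%, 52.6% and 80.4% with the first 5 of these. The cause of these changes was not tested. Subtracting the median of probes of similar signal, chosen after seeing the data, moved none of the 5 STAT genes on both arrays by more than the spot error. The signal of Stat4 after IL-4, not well above background, allows a bound and no more.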
